A study of Mus musculus with 2 samples.

Results

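The genes described here are 31 hypoxia-induced genes that act outside glucose metabolism, chosen by name from the 32285 genes listed in each library, and all 31 were found by their symbols. They were followed in single cells with over 2000 and under 9000 detected genes and less than 10% mitochondrial transcripts, gene by gene, to see which were higher in every cell class of the mutant library and which in 1 class only. When oxygen or its sensing is low, the prolyl hydroxylases that mark hypoxia-inducible factor alpha subunits (HIF) for destruction by the von Hippel-Lindau ligase lose activity, and HIF binds a short DNA core near its target genes and raises their transcription. The best known targets move the cell from respiration to glycolysis, whereas the genes followed here protect or remodel mitochondria, buffer acid, edit histones, repress transcription, or are secreted. Activated PI3K, acting through AKT and mTOR, is known to raise HIF activity in normal oxygen too.

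Single cells were profiled with the 10x Genomics 5′ chemistry from mouse embryos at E13.5, from the upper body above the liver, after sorting for eYFP. The control library came from Isl1-Cre;R26R-eYFP embryos and the mutant library from Isl1-Cre;R26R-eYFP;Pik3caH1047R embryos, 3 pooled embryos each, so that Isl1-Cre and the eYFP reporter were shared by both genotypes and the activating Pik3ca allele was in the mutant library alone. Isl1-Cre marks the cardiopharyngeal lineage together with other Isl1 cells and their progeny, and reporter and Pik3ca allele were switched on by the same Cre, in endothelial and other cells alike. Counts per gene do not show the Pik3ca allele, and the genotype of single cells was not checked.

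After filtering, 2783 of 4505 control cells and 3489 of 5357 mutant cells remained, with a median of 20412 and 16839 unique molecular identifiers (UMIs, counted transcripts) per cell. Clustering without the genes discussed here gave 15 clusters, and 9 cell classes that held 50 cells or more in each library were compared. Endothelial cell (EC)-like cells numbered 148 in the control and 696 in the mutant library, and all 16 EC markers were raised in them. The others were mesenchyme-like (528 and 503 cells), branchial muscle-like (888 and 839), epithelium-like (212 and 307), neuron-like (193 and 469), cardiomyocyte-like (54 and 184) and mesothelium-like cells (70 and 67), together with 2 clusters that kept a number. Cluster 4 was led by Adh1 and Wnt2 (364 and 135 cells), and cluster 7 by hemoglobin and macrophage genes (173 and 176 cells). A further 47 hepatoblast-like cells were found in the mutant library and 0 in the control library, and 12 cell barcodes occurred in both libraries. The libraries differed in sex: judged from Xist and 4 genes of the Y chromosome, the control library was 95.5% female-like, and the mutant library held 33.6% female-like and 53.3% male-like cells. Summed hemoglobin transcripts were at 59.8 CPM (counts per 1000000 UMIs) in control and 65.4 CPM in mutant EC-like cells. In the other classes outside cluster 7 they were higher in the mutant library each time. They ranged there from 5.52 to 16.4 CPM in the control and from 26.6 to 53.5 CPM in the mutant library. The part of hemoglobin in the values below was not tested. With 1 library per genotype there was no replicate and no test between genotypes: every interval given here is a 95% interval for counting error only, and differences between embryos are not in it.

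The promoters of the 5 genes that were higher in every class are shown because they share that pattern, and the promoter of Wsb1, higher in 1 class only, stands beside them for contrast. They were taken from RefSeq (GRCm38.p6), 250 bases before to 50 bases after the annotated start, 5′ to 3′ on the gene's strand. Capitals mark ACGTG or GCGTG on either strand (CACGT and CACGC on the printed one), the core letters of the element that HIF binds, and overlapping matches such as CACGTG count at each position.
Ankrd37 chr8:45999801-46000100 (minus strand): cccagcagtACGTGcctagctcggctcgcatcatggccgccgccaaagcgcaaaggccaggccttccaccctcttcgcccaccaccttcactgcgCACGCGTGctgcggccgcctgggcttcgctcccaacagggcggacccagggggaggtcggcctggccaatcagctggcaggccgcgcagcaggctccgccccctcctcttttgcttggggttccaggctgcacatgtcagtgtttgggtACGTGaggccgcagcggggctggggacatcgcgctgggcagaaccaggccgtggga
Stc2 chr11:31370012-31370311 (minus strand): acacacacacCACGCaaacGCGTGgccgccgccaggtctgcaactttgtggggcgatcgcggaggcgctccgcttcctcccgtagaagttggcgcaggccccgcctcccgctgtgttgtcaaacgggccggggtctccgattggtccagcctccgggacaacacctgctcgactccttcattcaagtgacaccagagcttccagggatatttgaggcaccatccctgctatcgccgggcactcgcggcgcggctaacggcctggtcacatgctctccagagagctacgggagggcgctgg
Higd1a chr9:121857747-121858046 (minus strand): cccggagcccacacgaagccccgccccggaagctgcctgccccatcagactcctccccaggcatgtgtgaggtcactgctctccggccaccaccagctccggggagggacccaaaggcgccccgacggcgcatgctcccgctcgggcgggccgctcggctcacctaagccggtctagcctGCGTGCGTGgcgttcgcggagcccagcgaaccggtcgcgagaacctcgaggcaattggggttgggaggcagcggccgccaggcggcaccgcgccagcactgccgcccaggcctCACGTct
Fam162a chr16:36071512-36071811 (minus strand): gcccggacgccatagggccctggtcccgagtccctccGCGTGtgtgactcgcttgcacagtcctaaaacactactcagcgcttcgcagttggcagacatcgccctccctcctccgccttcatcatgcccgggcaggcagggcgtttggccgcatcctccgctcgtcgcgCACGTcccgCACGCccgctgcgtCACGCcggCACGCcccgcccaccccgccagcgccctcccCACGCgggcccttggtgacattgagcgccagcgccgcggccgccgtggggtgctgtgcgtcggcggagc
Ak4 chr4:101419039-101419338 (plus strand): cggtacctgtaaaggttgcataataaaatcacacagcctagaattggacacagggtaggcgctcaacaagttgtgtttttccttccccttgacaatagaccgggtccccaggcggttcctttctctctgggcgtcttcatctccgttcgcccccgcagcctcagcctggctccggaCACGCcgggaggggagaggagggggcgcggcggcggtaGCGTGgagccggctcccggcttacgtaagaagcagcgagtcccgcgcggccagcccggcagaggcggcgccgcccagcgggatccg
Wsb1 chr11:79254646-79254945 (minus strand): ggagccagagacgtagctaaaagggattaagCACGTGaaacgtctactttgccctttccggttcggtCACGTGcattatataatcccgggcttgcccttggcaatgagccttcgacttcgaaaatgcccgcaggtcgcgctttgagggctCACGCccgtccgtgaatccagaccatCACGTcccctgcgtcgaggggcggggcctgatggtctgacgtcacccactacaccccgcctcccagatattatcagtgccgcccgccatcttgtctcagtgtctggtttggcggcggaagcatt

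Of the 31 members, 25 had RefSeq promoters, 36 in all, and 28 of these 36 (77.8%) held the core letters, beside 43.8% of all 32851 mouse promoters of the same length. Some promoters of 1 gene overlap, as for Ak4. By gene, 22 of the 25 (88%) held the letters in a promoter, beside 46.7% of all 27025 genes. The Fam162a and Wsb1 promoters held 6 matching positions each, Ankrd37 held 4, Higd1a 3, and Stc2 and Ak4 held 2. Positions overlap in part in Wsb1 (at CACGTG), Ankrd37 (at CACGCGTG) and Higd1a (at GCGTGCGTG), so these promoters held fewer separate sites than positions. Those of Fam162a, Stc2 and Ak4 do not overlap. Of the other members higher in 1 class only, the promoter nearest the gene start held 2 positions for Rora and 0 for Fam13a and Ppfia4. Over all cells Wsb1 had a mutant over control ratio of 1.08, and Fam162a was 2.52-fold, Stc2 4.72-fold and Ak4 2.43-fold higher. A link between the number of matches and the ratios was not tested. The Ankrd37 start in RefSeq lies 5857 bases from the gene start in GENCODE. Binding was not measured, and a match in a promoter is a description of its letters.

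Over all filtered cells, 20 of the 31 members were at least 1.5-fold higher in the mutant library, where 15.6% of all 20760 genes with at least 20 UMIs were, and 1 was at least 1.5-fold lower (13.8% of all genes). The median log2 ratio of mutant over control was 0.73 for the members and -0.02 for all genes. The mix of classes differed between the libraries. EC-like cells were 5.32% of control and 19.9% of mutant cells, and cluster 4 was 13.1% and 3.87%. The part of this mix in the ratios over all cells was not tested. Car9, Ankrd37, Bhlhe40, Ndrg1 and Stc2 had the highest log2 ratios, from 2.24 to 3.94, and the gene below the 1.5-fold limit was Nos2, at -0.76 (-1.38 to -0.16) from 60 control and 39 mutant UMIs.

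The share of members that were higher exceeded the share of all genes in each of the 9 classes, and it was lowest in cluster 7. In EC-like cells 21 of 30 measured members were at least 1.5-fold higher (14.9% of all genes). Mesenchyme-like cells had 21 of 30 higher (12.5%), epithelium-like cells 20 of 30 (10.9%) and branchial muscle-like cells 20 of 30 (16.8%). Mesothelium-like cells had 22 of 28 higher, in a class where 23.1% of all genes were higher and where median depth was 28114 UMIs per control cell and 14430 per mutant cell. Neuron-like cells had 13 of 29 (8.3%), cardiomyocyte-like cells 13 of 26 (13.6%), cluster 4 had 11 of 28 (14.9%) and cluster 7 had 10 of 28 (11.5%). The median log2 ratio of the members ran from 0.10 in cluster 7 and 0.40 in cardiomyocyte-like cells to 1.08 in mesothelium-like and 1.16 in EC-like cells. Members at least 1.5-fold lower numbered 5 in neuron-like cells (18.2% of all genes) and 5 in cluster 7 (19.1%), 2 in cardiomyocyte-like cells (21.5%) and 2 in cluster 4 (11.2%), 1 each in EC-like (15.3%), mesenchyme-like (14.5%), epithelium-like (12.1%) and mesothelium-like cells (14.4%), and 0 in branchial muscle-like cells (10% of all genes).

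**Figure D1:**
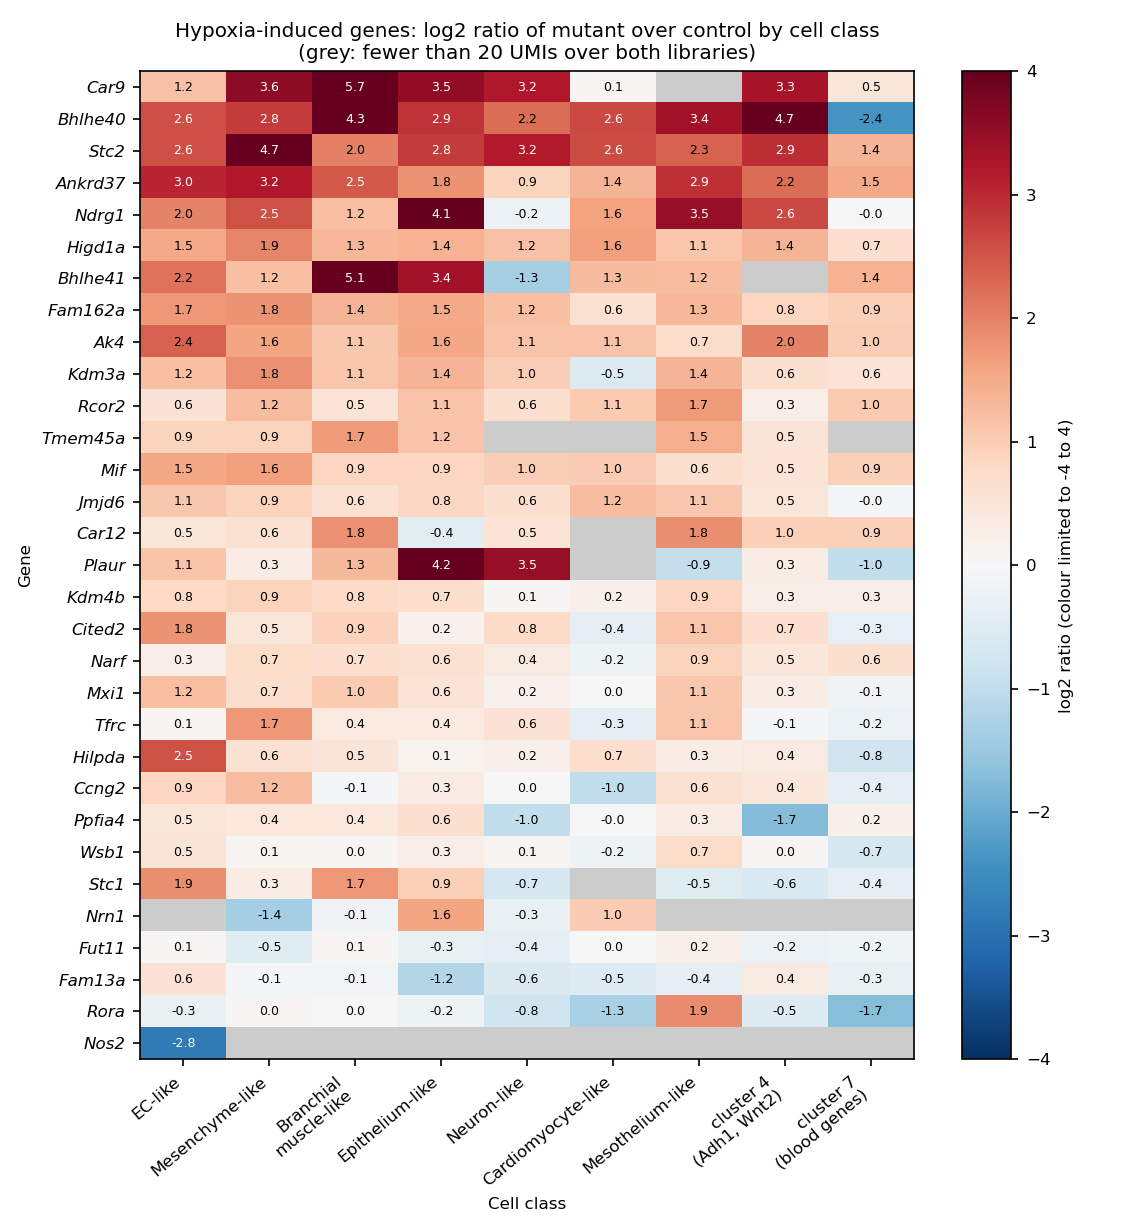
Log2 ratio of mutant over control CPM for each of the 31 genes (rows, ordered by their median over classes) in each of the 9 cell classes (columns); red is higher in the mutant library, blue lower, and grey marks fewer than 20 UMIs over both libraries. Higd1a, Fam162a, Ak4, Ankrd37 and Stc2 are past 1.5-fold in all 9 columns, and Kdm4b, Rcor2 and Mif are above 0 in all 9. Rora is 1.88 in mesothelium-like cells and at or below 0.04 in the other columns. The values of Bhlhe41 in EC-like cells and Nrn1 in cardiomyocyte-like cells rest on a floor of 3 UMIs, since the control cells of that class held 0 UMIs of the gene.

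A member was taken as higher in every class when its ratio reached 1.5-fold in each class where it had at least 20 UMIs over both libraries. This held for 5 members, Higd1a, Fam162a, Ak4, Ankrd37 and Stc2, in 9 of 9 classes each. Another 4 reached it in 1 class only (Rora, Wsb1, Fam13a and Ppfia4), Fut11 reached it in no class, Nos2 could be measured in 1 class, and the remaining 20 reached it in 2 to 8 classes. The share of all genes with each of these patterns was not computed, so the counts describe the members alone.

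Ankrd37 (chr8:45996902-46005707, minus strand, GRCm38), which encodes a small ankyrin-repeat protein, was at 23.0 CPM (18.1 to 28.8) in control and 188 CPM (181 to 195) in mutant EC-like cells, a log2 ratio of 3.03 (2.70 to 3.38). In mesenchyme-like cells it was 11.6 in the control and 106 CPM in the mutant library, the largest of its ratios at 3.20 (2.91 to 3.49). Its ratio was 2.91 in mesothelium-like, 2.46 in branchial muscle-like, 2.25 in cluster 4, 1.79 in epithelium-like, 1.53 in cluster 7 and 1.36 in cardiomyocyte-like cells. Neuron-like cells had the smallest, 0.88 (0.49 to 1.28), from 17.4 to 32.1 CPM.

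Stc2 (chr11:31357307-31370074, minus strand) encodes stanniocalcin 2, a secreted glycoprotein. It was near the detection limit in control mesenchyme-like cells, at 1.23 CPM from 12 UMIs, and at 31.8 CPM in the mutant library, a log2 ratio of 4.69 (3.86 to 5.66). In branchial muscle-like cells, where the control level was highest, it was 17.2 in the control and 70.1 CPM in the mutant library, and the ratio was 2.03 (1.87 to 2.19). In EC-like cells it was 7.67 in the control and 45.7 CPM in the mutant library, and in epithelium-like cells 6.57 in the control and 46.1 CPM in the mutant library. In 8 of the 9 classes the counting interval lay above 0, and in cardiomyocyte-like cells, with 1 control and 23 mutant UMIs, it did not.

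Higd1a (chr9:121848563-121858362, minus strand), a protein of the inner mitochondrial membrane, had ratios from 0.66 (0.50 to 0.82) in cluster 7 to 1.95 (1.86 to 2.04) in mesenchyme-like cells. It was at 117 CPM in control and 335 CPM in mutant EC-like cells, and at 216 and 668 CPM in cardiomyocyte-like cells, the class with the highest level in either library. Fam162a (chr16:36043761-36071594, minus strand), a mitochondrial protein linked to hypoxic cell death, had its smallest ratio in the class where its control level was highest, cardiomyocyte-like cells, with 472 and 725 CPM and a log2 ratio of 0.62 (0.47 to 0.77). Its largest ratio was 1.81 in mesenchyme-like cells and the EC-like ratio was 1.72. Ak4 (chr4:101419277-101466995, plus strand), the adenylate kinase of the mitochondrial matrix, was 6.44 in the control and 33.1 CPM in the mutant library in EC-like cells, a log2 ratio of 2.36 (1.73 to 3.07) and the largest of the 9. In the other 8 classes its ratio ran from 0.73 in mesothelium-like cells to 1.99 in cluster 4.

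The sex of the cells moved with these 5 genes, and its part in their values was not tested. Between female-like cells of both libraries, none of the 5 reached 1.5-fold in every measured class: Higd1a did so in 8 of 9, Fam162a in 7 of 9, Ak4 and Ankrd37 in 7 of 8 each and Stc2 in 5 of 6. In female-like mesothelium-like cells, from 68 control and 23 mutant cells, Higd1a had a log2 ratio of -0.08 (-0.49 to 0.31). Fam162a missed the limit in cardiomyocyte-like cells (0.24, from 11 and 12 cells) and in cluster 4 (0.53), and in neuron-like cells Ankrd37 was at 0.47 and Ak4 at 0.25. When cells with a heat shock Hspa1a or Hspa1b UMI were left out, Fam162a and Stc2 reached 1.5-fold in each class measured (9 for Fam162a and 5 for Stc2), and Higd1a in 8 of 9, Ankrd37 in 7 of 8 and Ak4 in 6 of 8.

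Among the 4 members higher in 1 class only, Rora held that pattern under each of the 13 other ways of choosing or scaling the cells, and Wsb1, Fam13a and Ppfia4 did not. Rora (chr9:68653786-69388246, plus strand) encodes a nuclear receptor. In mesothelium-like cells it was 34.97 in the control and 129 CPM in the mutant library, a log2 ratio of 1.88 (1.47 to 2.30), and in female-like cells 2.37 (1.88 to 2.86). The difference from the next class, mesenchyme-like cells at 0.04, was 1.83 (1.43 to 2.24), where differences between classes are of log2 ratios with 0.5 UMIs added to each count, with a Wald interval. Rora was lower in neuron-like cells, at 109 and 62.3 CPM, in cardiomyocyte-like cells, at 40.4 and 16.3 CPM, and in cluster 7, at 60.3 and 18.4 CPM. In EC-like cells it was 104 in the control and 84.3 CPM in the mutant library, a log2 ratio of -0.30 (-0.48 to -0.12), and its direction there turned in G1 cells (0.48).

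Wsb1 (chr11:79239372-79254671, minus strand), a substrate-binding subunit of a ubiquitin ligase, was 108 in the control and 179.8 CPM in the mutant library in mesothelium-like cells, a log2 ratio of 0.73 (0.46 to 1.01). EC-like cells came just under the limit at 0.52 (0.38 to 0.66), and the difference between these classes, 0.22 (-0.09 to 0.52), included 0. With other scalings EC-like cells passed 1.5-fold too, and in female-like cells no class did. Fam13a (chr6:58932090-59024549, minus strand) reached 1.5-fold in EC-like cells alone, at 0.59 (-0.15 to 1.42) from 17 control and 109 mutant UMIs, and was lower in epithelium-like cells at -1.18 (-1.68 to -0.69) and in neuron-like cells at -0.59 (-1.15 to -0.03). Ppfia4 (chr1:134296783-134332928, minus strand), which encodes the scaffold protein liprin alpha 4, reached it in epithelium-like cells alone, at 0.63 (-0.42 to 1.76) from 12 and 25 UMIs. It was lower in neuron-like cells at -0.98 and in cluster 4 at -1.72 (-4.08 to -0.03), the latter from 3 mutant UMIs. For Fam13a and Ppfia4 the interval of the one higher class included 0. Fut11, a fucosyltransferase, stayed between -0.48 in mesenchyme-like and 0.23 in mesothelium-like cells.

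Endothelial cells are those in which activating Pik3ca mutations are known to cause vascular malformations, and the members are given by their roles in EC-like cells beside the other classes. Of the 4 mitochondrial, energy and lipid genes, all 4 were higher. Besides Higd1a, Fam162a and Ak4, Hilpda (chr6:29272488-29275446, plus strand), a lipid droplet protein that restrains triglyceride breakdown, was at 18.1 CPM (13.8 to 23.3) in the control and 105 CPM (99.7 to 111) in the mutant library. Its EC-like log2 ratio, 2.54 (2.16 to 2.94), was the highest of the classes and exceeded the next, cardiomyocyte-like cells, by 1.91 (0.65 to 3.16). Elsewhere Hilpda ran from -0.79 in cluster 7 to 0.72. In female-like EC-like cells it was 18.6 CPM in the control and 103 CPM in the mutant library, and 105 CPM in male-like mutant cells.

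The carbonic anhydrases, membrane enzymes that convert carbon dioxide to bicarbonate and protons outside the cell, differed by class. Car9 (chr4:43506966-43513729, plus strand) had the largest ratio of any member over all cells, and the branchial muscle-like cells held 1370 of its 1810 mutant UMIs. There it was 1.37 in the control and 70.6 CPM in the mutant library, a log2 ratio of 5.69 (5.19 to 6.24), which exceeded the next class by 2.13 (1.24 to 3.02). In EC-like cells it was 3.37 in the control and 7.57 CPM in the mutant library, from 11 and 105 UMIs, at 1.17 (0.27 to 2.21), and in female-like EC-like cells at 0.27 (-0.85 to 1.47). Car12 was at 3.99 and 5.55 CPM in EC-like cells, a ratio of 0.48 (-0.38 to 1.45), and reached 1.5-fold in 5 of 8 classes. Its EC-like ratio turned below 0 in 5 of 13 alternatives, lowest in female-like cells at -0.46 (-1.63 to 0.73), where Car12 reached 1.5-fold in 1 of 4 measured classes.

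Of the 4 chromatin genes, 3 were higher in EC-like cells. Kdm3a, a demethylase of histone H3 lysine 9, was 39.6 in the control and 91.9 CPM in the mutant library, at 1.22 (0.95 to 1.49), and was higher in 7 of 9 classes. Between female-like EC-like cells Kdm3a was at 0.57 (0.26 to 0.88), under the 1.5-fold limit. Jmjd6, a related dioxygenase, was 46.6 in the control and 99.2 CPM in the mutant library, at 1.09, and also higher in 7 of 9. Between female-like cells Jmjd6 reached 1.5-fold in 3 of 9 classes. Kdm4b, which demethylates trimethylated histone H3, was at 0.79 in EC-like cells and higher in 5 of 9 classes, and its EC-like ratio was under the limit in 3 of 13 alternatives, to 0.57 in female-like cells and 0.55 without the cells that held an Hspa1a or Hspa1b UMI. Rcor2, a corepressor that works with the demethylase LSD1, was at 0.58 (0.09 to 1.11) in EC-like cells, just under the limit, and higher in 6 of 9. Over all cells the ratios of these 4 ran from 0.60 to 1.16.

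Among the 6 transcription factors and co-regulators, 5 were higher in EC-like cells and Rora was not. Bhlhe40 (chr6:108660629-108666925, plus strand), a basic helix-loop-helix repressor, was at 24.5 CPM (19.5 to 30.5) in control and 147 CPM (141 to 154) in mutant EC-like cells, a ratio of 2.58 (2.26 to 2.92). It was higher in 8 of 9 classes, most in cluster 4 (4.72) and branchial muscle-like cells (4.29), and lower in cluster 7, where the control library held 334 UMIs and the mutant library 69. Bhlhe41, its close relative, had 0 UMIs in control and 57 in mutant EC-like cells, 4.47-fold higher with the control count set to a floor of 3 UMIs. The size of this ratio rests on the floor, and in cells thinned to 5000 UMIs its log2 value was 0.61. Bhlhe41 was higher in 7 of 8 classes and lower in neuron-like cells, from 6.82 to 2.69 CPM. Cited2, which competes with HIF for the coactivators CBP and p300, was 32.2 in the control and 112 CPM in the mutant library in EC-like cells, at 1.80 (1.51 to 2.10), against 0.63 over all cells. Its EC-like level was the lowest of the 9 classes in the control library and ranked 7 in the mutant library. Mxi1, an antagonist of Myc, was 28.8 in the control and 66.7 CPM in the mutant library, at 1.21 (0.90 to 1.53), its highest class. Cited2 reached 1.5-fold in 5 of 9 classes and Mxi1 in 4 of 9.

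Of the 6 secreted and surface proteins, 5 could be measured in EC-like cells and 4 were higher. Stc1, the stanniocalcin related to Stc2, was at 18.7 CPM in the control and 67.7 CPM in the mutant library, a ratio of 1.86 (1.48 to 2.25). It was also higher in branchial muscle-like (1.74) and epithelium-like cells (0.95), and lower in neuron-like cells (-0.69, -1.32 to -0.05) and cluster 4 (-0.62, -1.66 to 0.30). Plaur, the urokinase receptor, was 30.97 in the control and 68.6 CPM in the mutant library, at 1.15 (0.85 to 1.46), and without the cells that held an Hspa1a or Hspa1b UMI at 0.52, under the limit. Its control level was highest in cluster 7, at 100.2 CPM, where the mutant level was 50.4 CPM. Its high ratios in epithelium-like and neuron-like cells came from 1 and 1 control UMIs, with intervals of 1.54 to 9.52 and 0.85 to 8.85. Mif, a cytokine with processed gene copies in the mouse genome that can share reads, was 612 in the control and 1778 CPM in the mutant library, at 1.54, and was higher in 8 of 9 classes. Mif came just under the limit in cluster 4 (0.54), and reached it in every class compared in 5 of 13 alternatives. Tfrc, the transferrin receptor, was at 0.07 (-0.32 to 0.48) in EC-like cells, and reached 1.5-fold in mesenchyme-like (1.75) and mesothelium-like cells (1.12). Nrn1, a protein of neurite growth, was at 98.1 and 79.5 CPM in neuron-like cells and lower in mesenchyme-like cells, at 13.4 and 5.16 CPM.

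Growth and turnover genes diverged. Ndrg1 (chr15:66929318-66969640, minus strand), a stress-response protein that restrains growth, was at 42.9 CPM (36.1 to 50.7) in control and 169 CPM (163 to 176) in mutant EC-like cells. Its ratio there, 1.98 (1.73 to 2.24), was below those of epithelium-like (4.13, 3.74 to 4.54), mesothelium-like (3.47, 3.01 to 3.97), cluster 4 (2.63) and mesenchyme-like cells (2.54). In neuron-like cells it was -0.25 (-0.57 to 0.07) and in cluster 7 -0.02 (-0.53 to 0.49). Between female-like EC-like cells Ndrg1 was at 0.98 (0.70 to 1.27). Ccng2, cyclin G2, which is tied to growth arrest, was at 0.86 in EC-like (0.46 in female-like cells, under the limit) and 1.23 in mesenchyme-like cells and lower in cardiomyocyte-like cells (-0.98, -1.61 to -0.32). Among the other enzymes and scaffold proteins, Tmem45a (0.89, -0.18 to 2.16) and Fam13a reached 1.5-fold in EC-like cells and Narf did not (0.25). Tmem45a was higher in 5 of the 6 classes where it could be measured, most in branchial muscle-like cells (1.70), and Narf in 5 of 9. Between female-like cells Tmem45a reached 1.5-fold in 3 of 5 measured classes and was at -0.32 over all cells. Narf reached it in 0 of 9 classes of female-like cells. Nos2 (chr11:78920787-78960254, plus strand), the inducible nitric oxide synthase, was lower in EC-like cells, at 14.4 CPM (10.6 to 19.2) in the control and 2.02 CPM (1.34 to 2.92) in the mutant library, from 47 and 28 UMIs, and in female-like cells its ratio was -2.36 (-3.38 to -1.43).

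**Figure D2:**
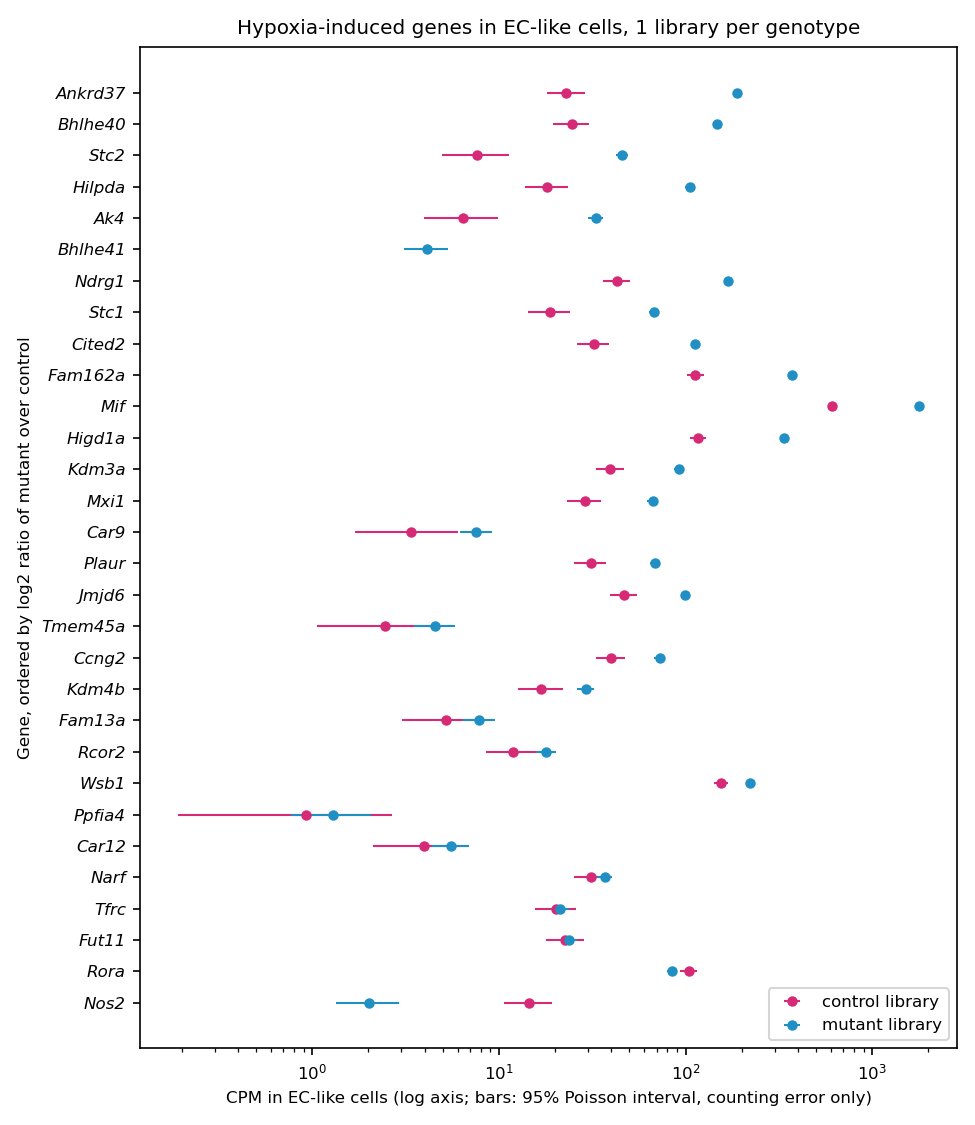
CPM of each of the 30 measured genes in EC-like cells (log axis), control in pink and mutant in blue, with 95% Poisson intervals for counting error, ordered by the log2 ratio of mutant over control. Bhlhe41 has no control point because its control count is 0. The libraries lie far apart for Ankrd37 (23.0 and 188 CPM) at the top, the bars overlap for genes of low level such as Ppfia4 and Car12, and the order is the reverse for Nos2 (14.4 and 2.02 CPM) at the bottom.

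Whether EC-like cells stood apart was read from the difference of log2 ratios between classes, computed in the same way. Against neuron-like cells, 17 of 28 members had a larger EC-like ratio with an interval above 0 (16.8% of all genes) and 1 had a smaller one (17%). Against cluster 7, 18 of 28 were larger (18.4%) and 0 smaller (22.8%), and against cardiomyocyte-like cells 11 of 25 were larger (15.9%) and 0 smaller (12.1%). Cluster 4 gave 12 of 28 larger (12.1%) and 3 smaller (20.5%), epithelium-like cells 11 of 29 (14.1%) and 3 (16%), and branchial muscle-like cells 11 of 29 (12.8%) and 5 (21.9%). Against mesothelium-like cells 8 of 28 were larger (14.5%) and 6 smaller (23.5%). Against mesenchyme-like cells, 8 of 29 were larger in EC-like cells (14.7%) and 11 smaller (25.1%), and for the other 10 the interval included 0. Hilpda, Cited2 and Stc1 were among the members with their highest ratio in EC-like cells. For Cited2 the difference from the next class, mesothelium-like cells, was 0.67 (0.27 to 1.06). For Stc1 the difference from branchial muscle-like cells was 0.11 (-0.31 to 0.52). The mix of sexes differed by class. In the mutant library, 233 female-like and 381 male-like cells were EC-like, 246 and 163 neuron-like, and 12 and 83 cardiomyocyte-like. Class differences were not computed between female-like cells alone, and the part of sex or embryo in them was not tested.

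The members were also counted in single cells thinned to 5000 UMIs each, which left out 61 control and 173 mutant cells. Mif, the most abundant, was set aside for this. A control EC-like cell held a median of 4 UMIs of the other 30 genes and a mutant EC-like cell a median of 10, and the 90th percentile was 8 against 26. The share of cells above the control 90th percentile was 55.9% (52.0 to 59.7, exact binomial) in mutant and 9.66% in control EC-like cells. In each class the limit was taken from the same control cells, which fixes the control share in advance. Intervals of these shares treat cells as independent and leave out the error of the limit. In the other mutant classes the share was 47.7% of mesothelium-like, 47.3% of branchial muscle-like, 45.0% of mesenchyme-like, 40.4% of epithelium-like, 34.8% of cardiomyocyte-like and 27.0% of neuron-like cells and 25.4% of cluster 4. In cluster 7 it was 8.24% (4.58 to 13.4), with 9.47% in the control library. The 10th percentile of EC-like cells was 2 UMIs in the control and 4 in the mutant library. Over all members, Mif included, the mean UMIs per EC-like cell was 2.70-fold higher (2.54 to 2.87) in the mutant library. In cluster 7 the same ratio was 1.29 with Mif and 0.907 without it.

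**Figure D3:**
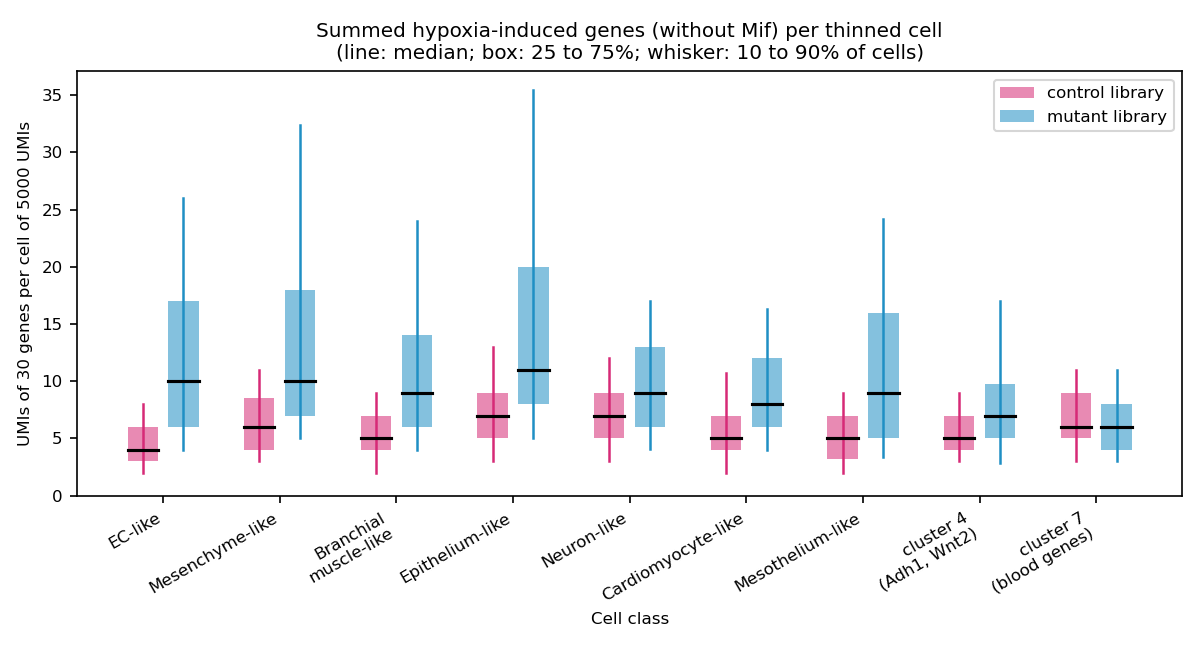
Summed UMIs of the 30 genes without Mif per cell thinned to 5000 UMIs, by cell class and library; black lines are medians, boxes span the 25th to 75th and whiskers the 10th to 90th percentile of cells. Mutant medians lie above control medians in each class but cluster 7, where both are 6, and mutant whiskers reach 26 UMIs in EC-like and 35.4 in epithelium-like cells, against 8 and 13 in the control library.

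In each class of the mutant library but cluster 7, cells with more UMIs of these genes also had more of the other HIF pathway genes. A list of 22 such genes was followed, from the HIF subunits and their hydroxylases to targets such as Vegfa and Slc2a1. In EC-like cells 15 of 22 were at least 1.5-fold higher (14.9% of all genes) and 2 lower (15.3%), with a median log2 ratio of 2.13. The list was written with earlier results of these data known, so this count describes the listed genes alone. Adm, which encodes the vasodilator adrenomedullin, had the highest ratio there (4.61), and Pfkfb4 the lowest (-1.69). Of the HIF alpha subunits, Hif1a was at 116 and 108 CPM in control and mutant EC-like cells (-0.10, -0.26 to 0.07), Epas1 was lower at 105 and 62.8 CPM (-0.74), and Hif3a was higher at 15.3 and 40.6 CPM (1.40, 0.99 to 1.85). Over the 664 mutant EC-like cells, the Spearman correlation between UMIs of the 30 genes and of the 22 was 0.76, and over the 145 control EC-like cells it was 0.09. Control EC-like cells held a median of only 4 UMIs of the 30 genes. The part of such low counts, or of the sex of the cells, in these correlations was not tested. The cells of a library share its embryos and handling, and all were thinned to the same depth, so these values are descriptions. Elsewhere in the mutant library the correlation was 0.68 for mesothelium-like, 0.67 for mesenchyme-like, 0.65 for epithelium-like, 0.60 for branchial muscle-like and 0.56 for cardiomyocyte-like cells, 0.49 for cluster 4, 0.26 for neuron-like cells and 0.07 for cluster 7. In the control library it lay between -0.10 and 0.09 in 8 classes and was 0.50 over 54 cardiomyocyte-like cells. By gene, the correlation with the 22 in mutant EC-like cells was highest for Ndrg1 (0.57), Fam162a (0.55), Bhlhe40 (0.50) and Ankrd37 (0.49).

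**Figure D4:**
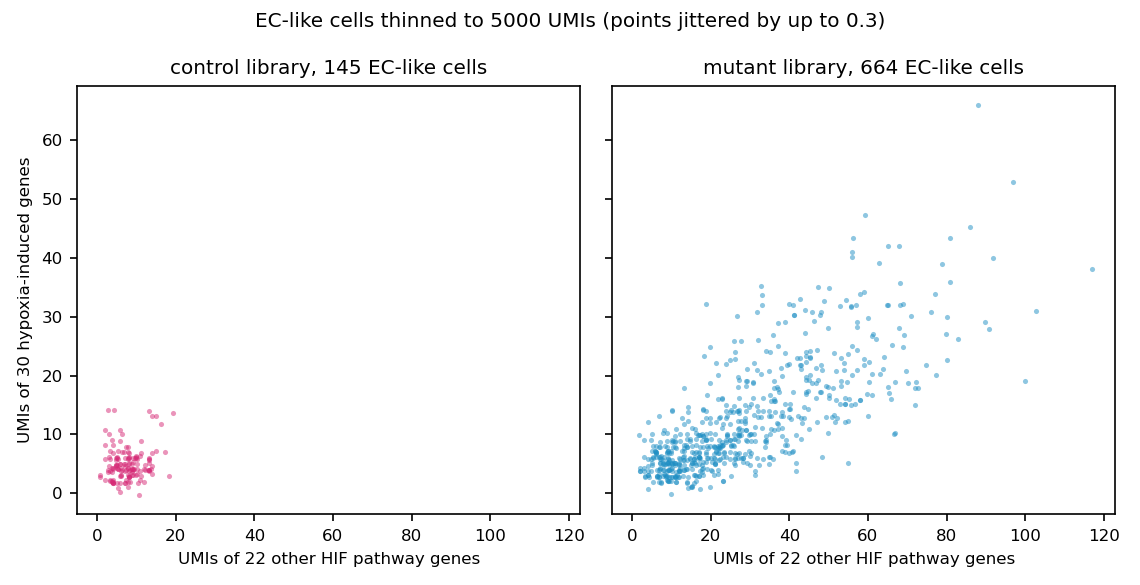
Each point is 1 EC-like cell thinned to 5000 UMIs, with UMIs of the 22 other HIF pathway genes on the horizontal axis and UMIs of the 30 hypoxia-induced genes without Mif on the vertical axis, control library on the left and mutant library on the right. The 145 control cells form a compact cloud near the origin, and the 664 mutant cells extend upward and to the right from it, with a Spearman correlation of 0.76.

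A list of 12 stress and dissociation genes moved in part with the libraries. In EC-like cells 5 of 12 were at least 1.5-fold higher (14.9% of all genes) and 0 lower (15.3%), led by Hspa1b (13.8 and 482 CPM), and Fosb was lowest at -0.49. Their summed level in EC-like cells was 2577 CPM in the control and 3877 CPM in the mutant library. Branchial muscle-like cells had the most higher, 8 of 12 (16.8%), with 2075 and 3136 CPM. In mesothelium-like cells 3 of 12 were higher (23.1%) and 7 lower (14.4%). The part of the stress genes in the members' values was not tested. In EC-like cells without an Hspa1a or Hspa1b UMI, 120 control and 236 mutant cells, 17 of 28 members were at least 1.5-fold higher (11% of all genes), and the median log2 ratio was 0.91 for the members and -0.05 for all genes. Within mutant cells the correlation of the 30 genes with this list was 0.17 in EC-like cells and ranged from -0.33 to 0.21 over the classes.

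Male-like mutant cells had higher levels of most members than female-like mutant cells in each class but cluster 7. In EC-like cells 24 of 29 members were above the female-like level, where the share of all genes above it was not computed for any class. There 9 of 29 were at least 1.5-fold higher (9.24% of all genes). The median log2 ratio of male-like over female-like EC-like cells was 0.43 for the members and 0.01 for all genes. In epithelium-like cells 17 of 27 were at least 1.5-fold higher (13.4% of all genes) and the median was 0.73 (0.05 for all genes). Mesenchyme-like cells had 13 of 30 at least 1.5-fold higher (8.98%), branchial muscle-like cells 9 of 29 (7.53%), mesothelium-like cells 12 of 22 (14.2%), cardiomyocyte-like cells 6 of 21 (16.6%) and cluster 4 had 8 of 24 (16.9%). Neuron-like cells had 6 of 26 (8.22%) with a median of 0.18 (0.01 for all genes). Cluster 7 had 4 of 26 (9.05%) with a median of -0.20 (-0.01 for all genes). Over all cells it was 9 of 31 (9.07%). Ndrg1 showed the pattern most plainly among epithelium-like cells, with 13.8 CPM in control female-like, 44.5 CPM in mutant female-like and 406 CPM in mutant male-like cells. In branchial muscle-like cells Ndrg1 was at 18.6 CPM in control and 18.4 CPM in mutant female-like cells and at 59.5 CPM in mutant male-like cells. Each library pooled 3 embryos, so sex and embryo cannot be told apart, and all but 1 of the control cells given a sex were female-like.

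Between female-like cells alone, 18 of 31 members were at least 1.5-fold higher over all cells (14.4% of all genes). In EC-like cells 16 of 28 were (10.2%), in mesenchyme-like cells 16 of 30 (10.9%), among branchial muscle-like cells 17 of 30 (12.9%) and among epithelium-like cells 11 of 24 (7.84%). The median log2 ratios were 0.79, 0.74, 0.74 and 0.39 in that order. In neuron-like cells 7 of 25 were higher (6.84%), with a median of 0.18. Mesothelium-like cells had 14 of 25 higher (23.4%), cardiomyocyte-like cells 3 of 11 (18.1%), cluster 4 had 7 of 25 (20.2%) and cluster 7 had 8 of 27 (10.5%). Members at least 1.5-fold lower numbered 6 in cluster 7, 5 in neuron-like cells, and 3 each in epithelium-like cells, cardiomyocyte-like cells and cluster 4. There was 1 each in EC-like and mesenchyme-like cells, and 0 in branchial muscle-like and mesothelium-like cells. The share of all genes that were lower was not computed. In cells thinned to 5000 UMIs, 48.9% (42.2 to 55.6) of female-like and 61.1% (55.9 to 66.1) of male-like mutant EC-like cells exceeded the control 90th percentile of summed UMIs.

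**Figure D5:**
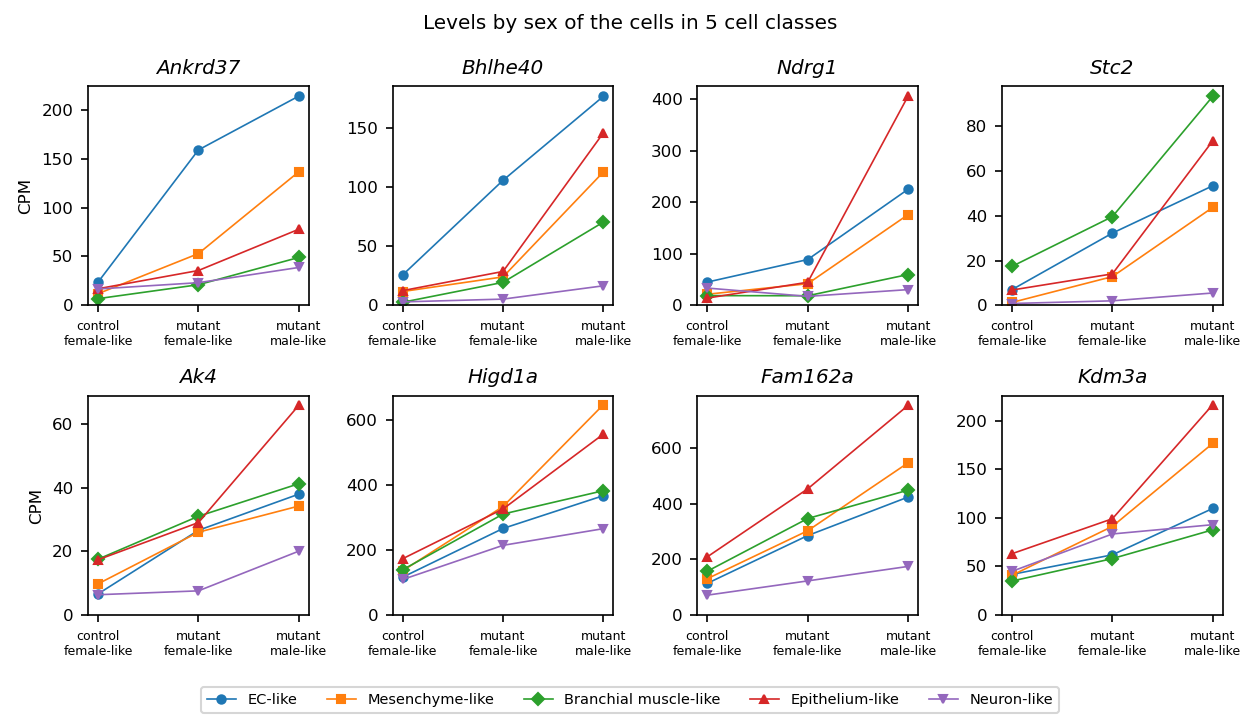
CPM of 8 members in control female-like, mutant female-like and mutant male-like cells, with a line for each of 5 cell classes. Most lines go up at each step, as for Ankrd37 in EC-like cells (23.6, 159 and 214 CPM), and Ndrg1 in branchial muscle-like cells is level between female-like cells and higher in male-like cells.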

How the data were processed

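UMI counts per gene and cell were deposited by the authors for 1 control and 1 mutant library, made with Cell Ranger 7.1.0 on mm10 per the labels. The annotation release is not given in the sources used here. Each library listed 32285 genes. Deposited totals were 66935720 UMIs in 4505 control cells and 73915525 UMIs in 5357 mutant cells. Cells with over 2000 and under 9000 genes and under 10% mitochondrial UMIs were kept, as in the study's methods. Scrublet (scanpy 1.11.5) called 0 control and 1 mutant doublet, so it did not work as a filter, and no doublets were removed. Cells were clustered with Seurat 5.3.0 (R 4.3.3; CCA integration, 30 components, 20 neighbours, resolution 0.27, cell cycle regressed) on 2000 variable genes, from which 70 listed genes, the members among them, were left out. The resolution and the naming of clusters from marker genes were set after the data were seen.

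UMIs were summed per class and library (numpy 2.4.6, pandas 2.3.3) and scaled to CPM. A member was measured with at least 20 UMIs over both libraries and called at 1.5-fold. A count of 0 was replaced by a floor of 3 UMIs in that library, and such a ratio rests on the floor. Intervals are 95% exact Poisson (levels), conditional binomial (ratios), Clopper-Pearson (shares) or Wald (differences of log2 ratios, with 0.5 UMIs added to each count), from scipy 1.17.1, and cover counting error only. No test between genotypes was made. edgeR 4.0.16 gave TMM factors as an alternative scaling. The script was tested on simulated counts. All members are named, ordered by role. The members and gene lists were chosen with earlier results of these data known. Gene coordinates are from GENCODE vM21 (GRCm38) and promoters from RefSeq (GRCm38.p6). No promoter entry was matched for Kdm4b, Bhlhe40, Stc1, Nrn1, Ndrg1 and Nos2.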

Additional observations from a re-analysis of the deposited data

Results flagged for a closer look

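In 11 instances, from 9 members, a gene was at least 1.5-fold higher in 1 class or more, with a counting interval above 0 there, and at least 1.5-fold lower in another, with an interval below 0. Fam13a and Ppfia4 also had ratios past 1.5-fold in both directions, but the intervals of their higher classes included 0, so they are not among the 11. The difference between classes was not tested over libraries, since each genotype has 1, and the share of all genes with such opposite ratios was not computed. In cluster 7 the log2 ratio of mutant over control was -2.38 for Bhlhe40, a repressor that was higher in the other 8 classes, -1.71 for Rora, -0.99 for Plaur, -0.79 for Hilpda and -0.70 for Wsb1. In neuron-like cells it was -1.34 for Bhlhe41, -0.81 for Rora and -0.69 for Stc1. Cardiomyocyte-like cells had -1.31 for Rora and -0.98 for Ccng2, and mesenchyme-like cells -1.37 for Nrn1. Summed hemoglobin in cluster 7 was 3551 CPM in the control and 13903 CPM in the mutant library, and its part in the cluster 7 values was not tested.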

How the results depend on the processing

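Of 162 recomputed counts of higher members 143 stayed within 1.5 times the reported count. Recomputed medians were set against the median lower and the median upper bound of the members' counting intervals, and 134 of 142 lay between these. In EC-like cells these bounds were 0.85 and 1.57. They give the width for a typical single member and are not an interval of the median. Single members moved more often: of 310 recomputed log2 ratios over all cells 187 lay within the reported counting interval and 123 did not, and of 390 in EC-like cells 334 did and 56 did not. No ratio of a member called at 1.5-fold changed direction in either set. In female-like cells the median log2 ratio was 0.79 in EC-like, 0.74 in branchial muscle-like and 0.39 in epithelium-like cells, and the count of higher members was 11 in epithelium-like, 7 in neuron-like, 3 in cardiomyocyte-like and 14 in mesothelium-like cells and 7 in cluster 4. Setting male-like mutant cells against the whole control library gave a median of 1.17 in mesenchyme-like cells. Thinning to 5000 UMIs gave 1.12 in mesenchyme-like and 1.25 in branchial muscle-like cells. G1 cells gave 1.27 in branchial muscle-like cells and a count of 6 in cluster 7. Without cells that held an Hspa1a or Hspa1b UMI the median over all cells was 0.63, and the count was 9 in mesothelium-like cells and 5 in cluster 7. A 2-fold limit gave counts of 12 over all cells, 7 in neuron-like cells, 7 in cluster 4 and 4 in cluster 7. A minimum of 100 UMIs gave 6 in cardiomyocyte-like and 13 in mesothelium-like cells, 7 in cluster 4 and 6 in cluster 7, where fewer members could be measured. A counting interval wholly above 1.5-fold left 5 in cardiomyocyte-like and 12 in mesothelium-like cells and 3 in cluster 7. For these recomputed counts, apart from those in female-like cells, the share of all genes was not computed. Without Mif the ratio of summed member UMIs per cell was 1.92 over all cells, 2.51 in EC-like, 2.22 in mesenchyme-like, 1.40 in neuron-like, 1.76 in cardiomyocyte-like and 2.24 in mesothelium-like cells, 1.62 in cluster 4 and 0.907 in cluster 7, the last on the other side of 1. Apart from the changes of limit and of the members summed, the cause was not tested.

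The number of members higher in every class, 5 as reported, was 0 in female-like cells and 3 without the Hspa1a or Hspa1b cells, and reached 9 without integration, where 7 classes were compared. TMM scaling shifted all EC-like log2 ratios by 0.12 and cardiomyocyte-like ones by 0.15. No paired analysis was possible because each genotype has 1 library. Depth limits members of few UMIs, such as Ppfia4, Car9 and Bhlhe41 in EC-like cells.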
